A study of Mus musculus with 2 samples.

Results

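Endoplasmic reticulum chaperones are the proteins that fold and check newly made secretory and membrane proteins, and 10 of their genes were followed here: Hspa5, Hsp90b1, Calr, Canx, Pdia4, Pdia6, Creld2, Sdf2l1, Manf and Herpud1. They were taken by symbol from a given list of 10 genes, and all 10 were measured among the 27842 genes listed in either of 2 tables. The study compared single cells of mouse bone marrow from a control and from a diabetic state. The control library came from C57/BL6 mice given sodium citrate solution, with normal blood sugar, and the T1D library from mice of the same strain given streptozotocin (a drug that kills pancreatic beta cells), whose blood sugar was high. Marrow was taken from femurs and tibias in both. The age, the sex, the time after treatment and the number of animals behind each library were not stated in the labels used here.

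Proteins that enter the secretory pathway are threaded into the endoplasmic reticulum unfolded. Hspa5 (BiP, an Hsp70) and Hsp90b1 (GRP94, an Hsp90) hold and fold them, the lectins Canx and Calr retain glycoproteins until they are folded, and disulfide isomerases such as Pdia4 and Pdia6 pair their cysteines. When unfolded protein builds up, the sensors Ern1, Eif2ak3 and Atf6 start the unfolded protein response, which raises transcription of many of these genes. Antibody-secreting plasma cells are the textbook example of a marrow cell with a large reticulum, and granulocyte progenitors load granules with enzymes through the same route.

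There was 1 library per group, so no comparison between the libraries has a replicate and none was tested. Intervals are 95% intervals that cover counting error only, and the condition cannot be told apart from anything else that differed between the libraries. Kept cells numbered 12803 in the control and 15579 in the T1D library. A control cell had a median of 3633 counts over 1051 genes, and a T1D cell 2757 counts over 803 genes. Nuclear ribosomal RNA took 30.3% and 34.0% of all counts. The libraries shared 253 barcode strings. Cells fell into 31 clusters, and marker genes named classes of which 13 had at least 50 cells in both libraries. The part of library quality in the results below was not tested. Levels (CPM) are the counts of a gene scaled to a class total of 1000000 counts, which corrects for depth. They do not tell fewer expressing cells from less RNA per cell.

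Promoters are shown because 7 of the genes carry, near their start, a known element of the unfolded protein response. The endoplasmic reticulum stress element ERSE reads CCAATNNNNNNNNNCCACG and was searched on both strands from 250 bases before to 50 bases after each start in RefSeq's GRCm38.p6 table, which holds 9 of the 10 genes. It was found in 6 of these 9 genes, against 0.137% of the 27025 genes of that table (0.119% of all 32851 promoters of that length). Its letters are in capitals below, and each line runs 5′ to 3′ on the gene's strand with 20 bases on each side. The elements of Calr and Creld2 and the second of Hsp90b1 lie on the opposite strand and therefore read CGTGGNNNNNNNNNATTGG.
Hspa5, 65 to 47 bases before the start, chr2:34772005-34772063, plus strand: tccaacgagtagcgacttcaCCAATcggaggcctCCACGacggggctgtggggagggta
Hsp90b1, 212 to 194 bases before the start, chr10:86705618-86705676, minus strand: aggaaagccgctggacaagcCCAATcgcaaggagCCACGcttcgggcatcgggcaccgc
Hsp90b1, 107 to 89 bases before the start, chr10:86705513-86705571, minus strand: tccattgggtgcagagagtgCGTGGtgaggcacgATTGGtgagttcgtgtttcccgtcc
Calr, 162 to 144 bases before the start, chr8:84847055-84847113, minus strand: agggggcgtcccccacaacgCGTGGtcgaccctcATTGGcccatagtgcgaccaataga
Canx, 145 to 127 bases before the start, chr11:50325780-50325838, minus strand: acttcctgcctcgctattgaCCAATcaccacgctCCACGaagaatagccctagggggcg
Pdia6, 98 to 80 bases before the start, chr12:17266471-17266529, plus strand: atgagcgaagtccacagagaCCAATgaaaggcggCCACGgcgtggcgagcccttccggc
Creld2, 126 to 108 bases before the start, chr15:88819500-88819558, plus strand: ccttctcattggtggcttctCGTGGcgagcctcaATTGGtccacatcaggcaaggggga
All 7 windows lie before the RefSeq start of the gene.

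Herpud1 had no ERSE but held the shorter form ERSE-II, ATTGGNCCACG, which occurs in 0.0365% of all promoters of the table.
Herpud1, 52 to 42 bases before the start, chr8:94386357-94386407, plus strand: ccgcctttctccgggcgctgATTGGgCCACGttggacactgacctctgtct
The letters TGACGTGG, a form of the unfolded protein response element present in 0.676% of promoters, were in none of the 9. Pdia4 and Sdf2l1 held none of the 3 motifs in this window. Of the 80 other genes of the pathway and comparison lists described below, 63 were in the promoter table, and among these Dnajc3, Syvn1 and Derl3 held ERSE and Dnajb11 held ERSE-II. A match is a description of these letters, not a mapped binding site.

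Among the 13 classes found in both libraries, plasma cells had the highest level of 5 of the 10 genes in either library, Hsp90b1, Pdia4, Creld2, Manf and Herpud1, against 1.90% of the 5013 genes with at least 50 CPM in their highest class of both libraries. The plasma class, 70 control and 94 T1D cells, carried all 9 of its 9 markers. Hsp90b1, which folds immunoglobulins and integrins among other clients, stood at 4549 CPM in control and 2828 CPM in T1D plasma cells. The class with the next highest level, stem or multipotent progenitors, had 1852 and 1210 CPM, and the counting intervals did not overlap. Pdia4, a disulfide isomerase, stood at 705 and 446 CPM in plasma cells against 237 and 125 CPM in the same progenitors. Creld2, a calcium-binding protein of the reticulum, stood at 494 and 251 CPM, and no other class passed 147 CPM. Manf, a BiP-binding factor that is also secreted, stood at 555 and 340 CPM, ahead of 392 CPM in control granulocyte progenitors and 219 CPM in T1D stem or multipotent progenitors. Herpud1, a membrane protein of the degradation machinery, stood at 695 and 451 CPM, and of these 13 classes plasmacytoid dendritic cells came next at 202 and 218 CPM. Pro- or pre-B cells, found in the control library alone, had 243 CPM. For each of these 5 genes the plasma level lay apart from the next of the 13 classes in both libraries.

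**Figure D1:**
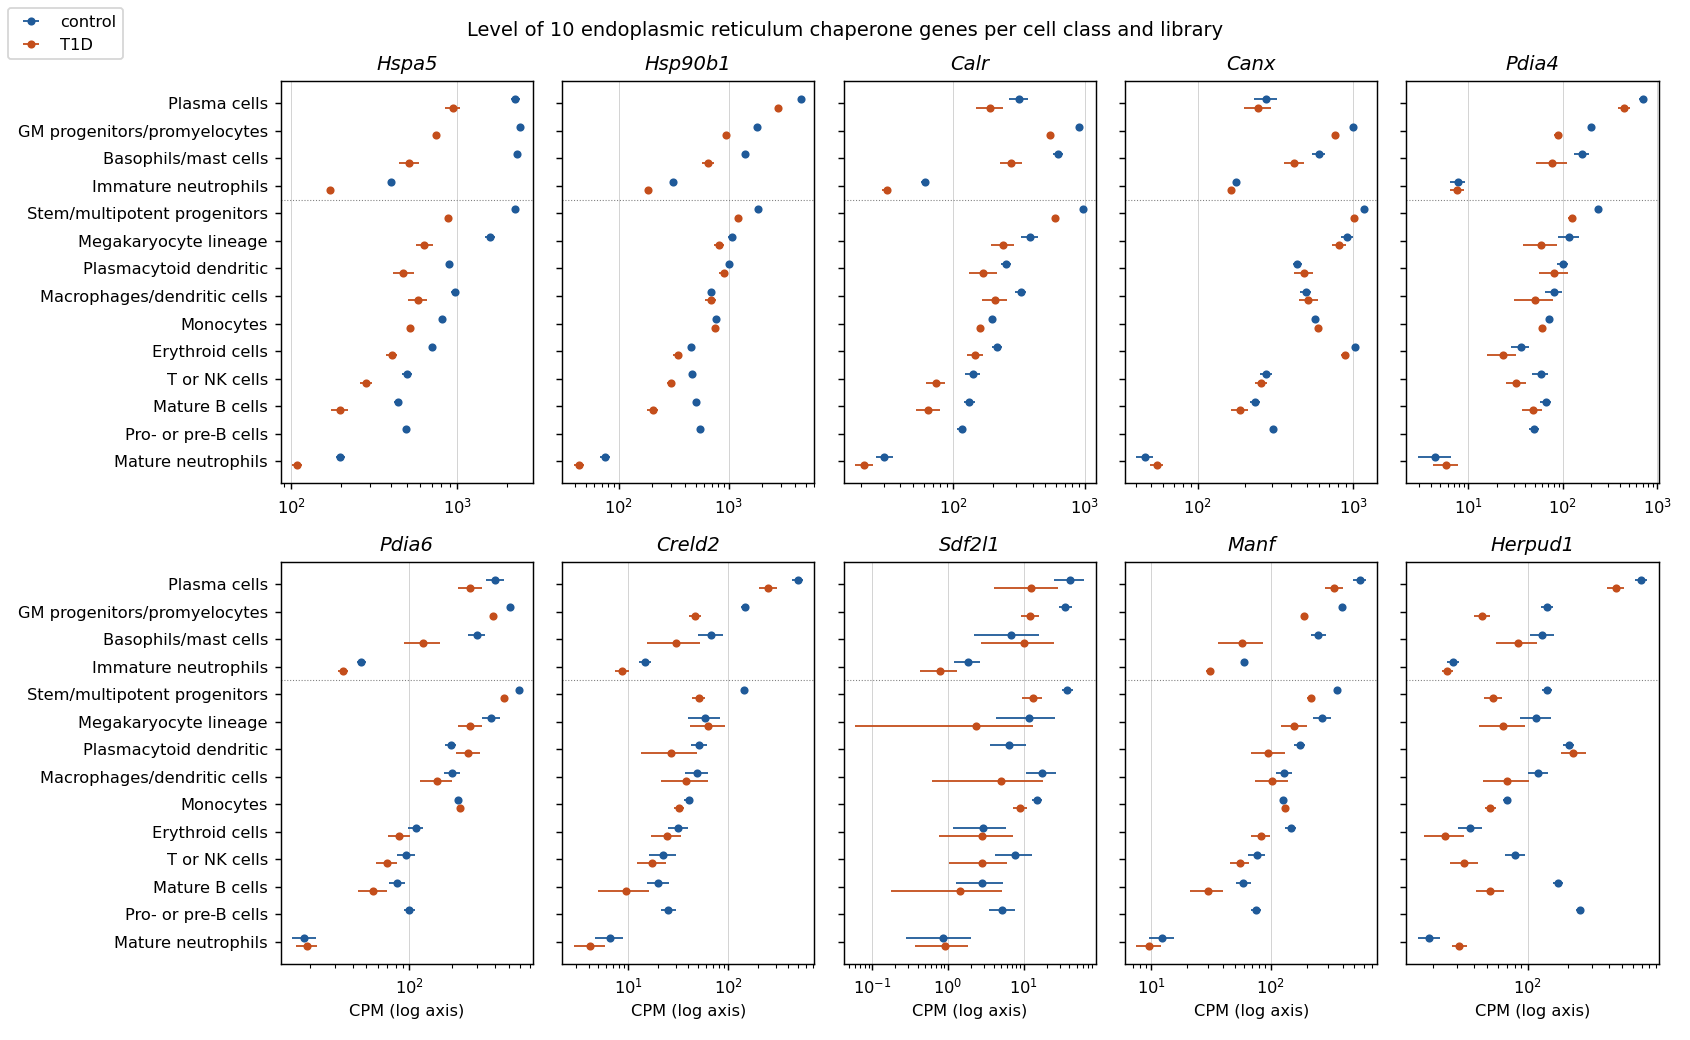
Level of each gene in CPM (log axis) for 14 cell classes, blue for the control and orange for the T1D library, with 95% counting intervals. Classes above the dotted line are those placed on the secretory side. Plasma cells stand to the right for Hsp90b1, Pdia4, Creld2, Manf and Herpud1, and mature neutrophils lie at the left of nearly every panel. Sdf2l1 in T1D plasmacytoid dendritic cells, at 0, is not drawn.

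Hspa5, Calr, Canx and Pdia6 did not follow that order. Hspa5, the central chaperone, stood at nearly 1 level in 4 control classes. These were granulocyte-monocyte progenitors or promyelocytes at 2379 CPM, basophils or mast cells at 2287 CPM, plasma cells at 2236 CPM and stem or multipotent progenitors at 2226 CPM, with each neighbouring pair of intervals overlapping. In the T1D library plasma cells at 936 CPM and stem or multipotent progenitors at 876 CPM led and overlapped. Calr, a lumenal lectin and calcium buffer, was highest in stem or multipotent progenitors at 958 and 593 CPM, against 314 and 190 CPM in plasma cells. Pdia6, a disulfide isomerase, was also highest there, at 586 and 462 CPM, against 398 and 266 CPM in plasma cells.

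Canx, the membrane-bound lectin, also had another order. It was highest in stem or multipotent progenitors at 1170 and 1004 CPM and next highest in erythroid cells at 1028 and 880 CPM. Plasma cells had 273 and 244 CPM, below monocytes, megakaryocyte-lineage cells and basophils or mast cells in both libraries. Sdf2l1, a cochaperone of the BiP complex, was low throughout. Its highest control levels were 41.0 CPM in plasma cells and 37.6 CPM in stem or multipotent progenitors, with overlapping intervals. In T1D no class passed 13.1 CPM, and plasmacytoid dendritic cells had 0 counts, which allows up to 7.36 CPM (3 counts of the class total). Of the 13 classes, mature neutrophils had the lowest control level of each of the 10 genes.

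Secretory classes were set against a pool of non-secretory ones, namely pro- or pre-B cells, mature B cells, T or NK cells, erythroid cells and mature neutrophils. The T1D pool held no cell of the pro- or pre-B class, so excesses of the 2 libraries are given side by side and not compared. Mature neutrophils gave the pool the most counts, 5827342 in control and 7726498 in T1D. Next came control pro- or pre-B cells with 5338301 and T1D T or NK cells with 2149674. Plasma cells exceeded the pool by a median of 2.49 (log2) over the 10 genes in the control and 3.01 in the T1D library. The median of all genes with 50 CPM was -1.23 and -0.97. Of the 9 members with 50 CPM in the higher of plasma cells and pool, 8 had at least a 2-fold excess in each library, against 7.17% and 9.85% of all such genes. Creld2 had the highest ratio, 26.0-fold in control and 27.3-fold in T1D plasma cells, followed by Pdia4 at 19-fold and 26.6-fold. Canx was at 0.898 and 1.24 times the pool. Immunoglobulin transcripts took 39.7% and 32.5% of all plasma cell counts, and with them left out of the totals the median excess was 3.18 and 3.57.

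Granulocyte-monocyte progenitors or promyelocytes, 395 and 950 cells with all 5 of their markers, exceeded the same pool by a median of 2.39 and 2.06. Of the members with 50 CPM, 8 of 9 in control and 7 of 7 in T1D were at least 2-fold higher, against a background of 23.4% and 38.1%. The genes differed from plasma cells in their order. Calr stood at 8.38-fold and 11-fold the pool, above its 2.91-fold and 3.85-fold in plasma cells, and Canx reached 3.26-fold and 3.90-fold. Herpud1 was the 1 gene under 2-fold, at 1.19-fold and 1.38-fold. Basophils or mast cells had a median excess of 1.92 and 1.38, with 7 of 9 and 7 of 8 members with 50 CPM at least 2-fold higher, against 12.3% and 16.0% of all genes.

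**Figure D2:**
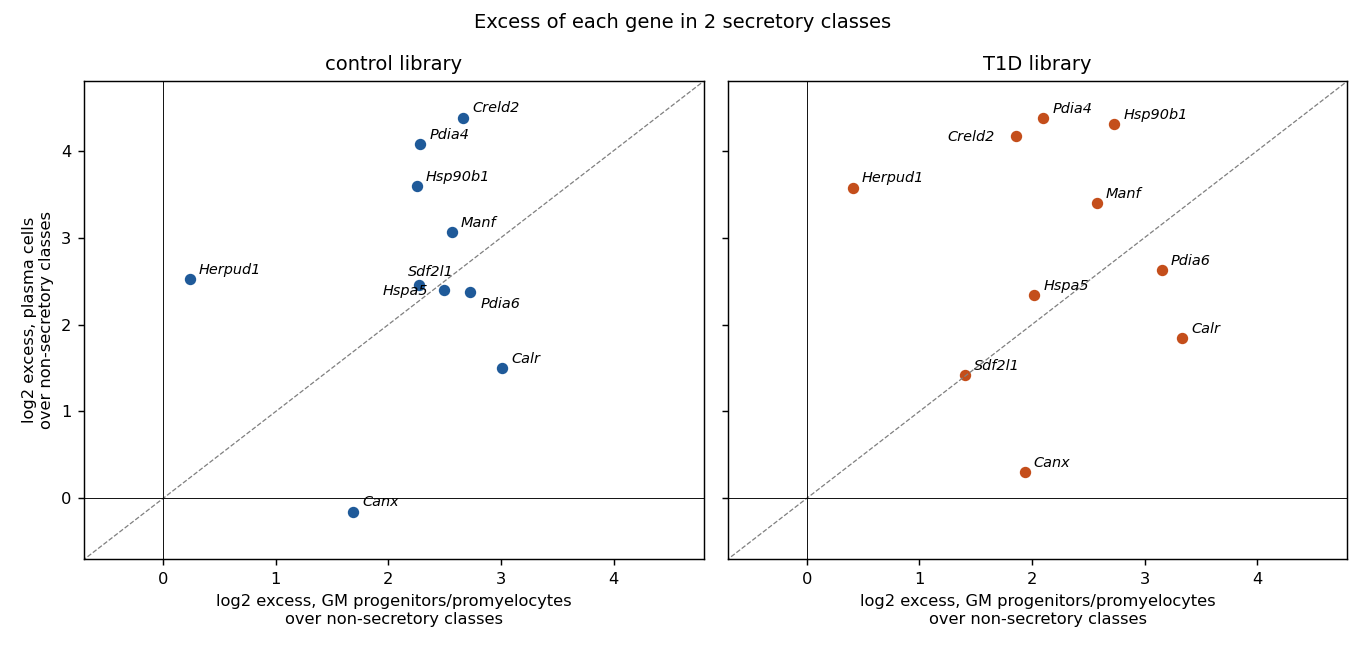
Log2 excess over the non-secretory pool in plasma cells (vertical) and in granulocyte-monocyte progenitors or promyelocytes (horizontal), 1 point per gene, for the control (left) and the T1D library (right), with the dashed line of equal excess. Herpud1 lies high and far left, at 2.52 in plasma cells and 0.24 in progenitors of the control library. Canx, Calr and Pdia6 lie below the line in both panels, and Hspa5 lies below it in the control panel.

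The label of a secretory class did not by itself go with a high level. Immature neutrophils, placed on the secretory side because they make granule proteins, had a median excess of -0.45 in control and -0.17 in T1D, with 0 of 10 and 2 of 10 genes above the pool. The median of all genes with 50 CPM was -0.29 and -0.10, not far from that of the members. None of the 7 and 3 members with 50 CPM was 2-fold higher, against 4.88% and 5.00% of all genes. At such shares a count of 0 does not set the members apart from other genes. Classes placed in neither group also had a positive median excess. It was 2.41 and 2.45 in stem or multipotent progenitors, 1.54 and 2.09 in megakaryocyte-lineage cells, 1.21 and 1.65 in plasmacytoid dendritic cells, 1.09 and 1.62 in macrophages or conventional dendritic cells and 0.92 and 1.58 in monocytes. Erythroid cells, themselves part of the non-secretory pool, had 0.60 and 1.09, beside 0.65 and 0.86 for all genes with 50 CPM. Over the 26 points of 13 classes and 2 libraries, the mean log2 level of the 10 genes had a Pearson r of 0.76 with the log10 of a class's median count per cell. The points share libraries, and the r is a description.

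Along the neutrophil lineage the summed level of the 10 genes was highest in the earliest clusters. It stood at 7706 CPM in control and 4608 CPM in T1D stem or multipotent progenitors, and at 7486 and 3774 CPM in granulocyte-monocyte progenitors or promyelocytes. The 5 clusters of immature neutrophils held 797 to 1584 CPM in control and 392 to 988 CPM in T1D. Mature neutrophil clusters held 406 to 500 CPM in control and 261 to 487 CPM in T1D. In mature neutrophils 904 of 2048 control cells and 2032 of 3417 T1D cells had no count of any of the 10 genes. Hspa5 alone went from 2379 CPM in control progenitors to 401 CPM in immature and 198 CPM in mature neutrophils.

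**Figure D3:**
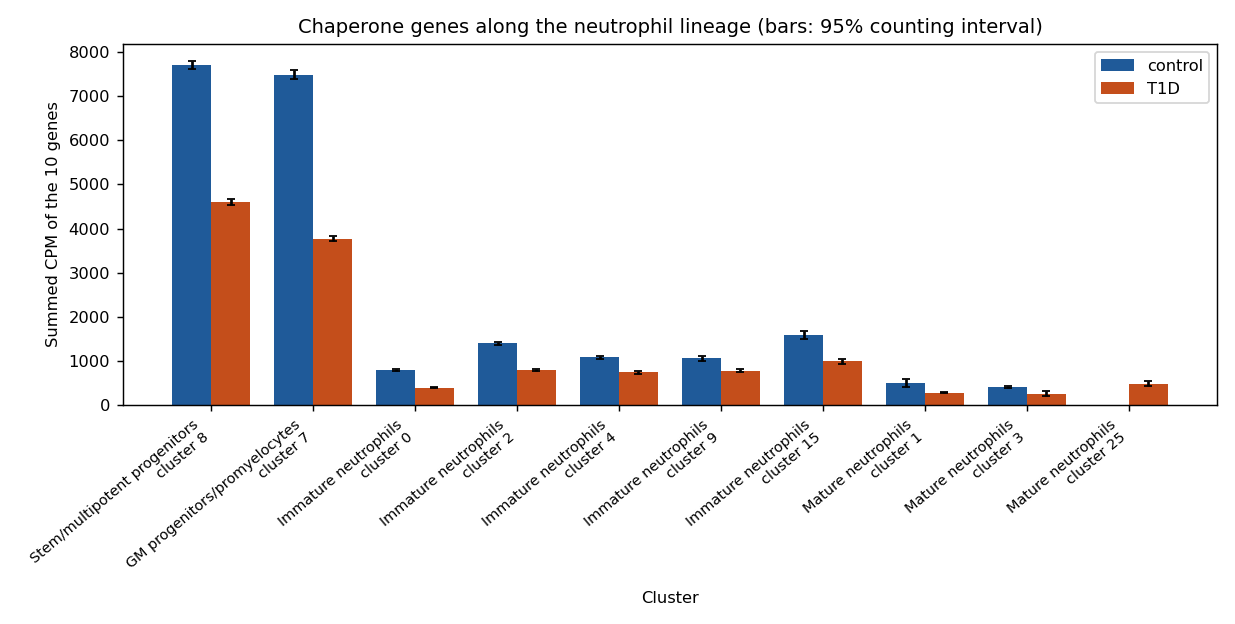
Summed CPM of the 10 genes (axis from 0) in the clusters of stem or multipotent progenitors, granulocyte-monocyte progenitors, immature and mature neutrophils, blue for control and orange for T1D, with 95% counting intervals as error bars. The lowest progenitor bar stands at 3774 CPM and the highest neutrophil bar at 1584 CPM. Cluster 25 had no control cells.

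All 10 genes were lower in the T1D library over all kept cells. Hspa5 had 792 CPM in control and 354 CPM in T1D, a 2.24-fold lower level (interval 2.20 to 2.28) and a log2 difference of -1.15. Herpud1 had 96.6 and 42.2 CPM, 2.29-fold lower (2.18 to 2.41). These were the 2 members past the size rule, which asks for a 2-fold difference on the log2(CPM + 5) scale, an interval without 1, and 50 CPM or more in 1 of the libraries. Of all 2779 genes with 50 CPM, 2.55% were lower by that rule.

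The interval lay below 1 for all 8 members with 50 CPM, but it also did for 53.6% of all genes. Hsp90b1 had 696 and 453 CPM, Calr 232 and 149 CPM, Pdia4 69.7 and 40.0 CPM, and Manf 125 and 80.4 CPM. Canx and Pdia6 differed least, with Canx at 435 and 375 CPM and Pdia6 at 168 and 138 CPM. Creld2 had 43.8 and 22.4 CPM and Sdf2l1 10 and 4.53 CPM. The median of the 10 was -0.64 on the log2 scale, and that of all genes with 50 CPM was -0.08. With both libraries held to cells at or above the lowest control total, 1904 counts, it was -0.56.

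Weighting the T1D classes by their control shares left the log2 difference of Hspa5 at -1.12. Herpud1 was then 1.58-fold lower, at 81.6 and 51.8 CPM. Only classes with cells in both libraries entered, so pro- or pre-B cells were left out of the control side as well. The weights do not reach clusters within a class, such as mature B cluster 18, found in the control library alone. The part of the cell mix in the difference was not tested. Pro- or pre-B cells, 1212 in control and 0 in T1D, had 243 CPM of Herpud1. Creld2 was 1.90-fold lower with the weights, Pdia4 1.58-fold, Calr 1.58-fold, Manf 1.54-fold, Hsp90b1 1.43-fold, Pdia6 1.19-fold and Canx 1.10-fold.

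**Figure D4:**
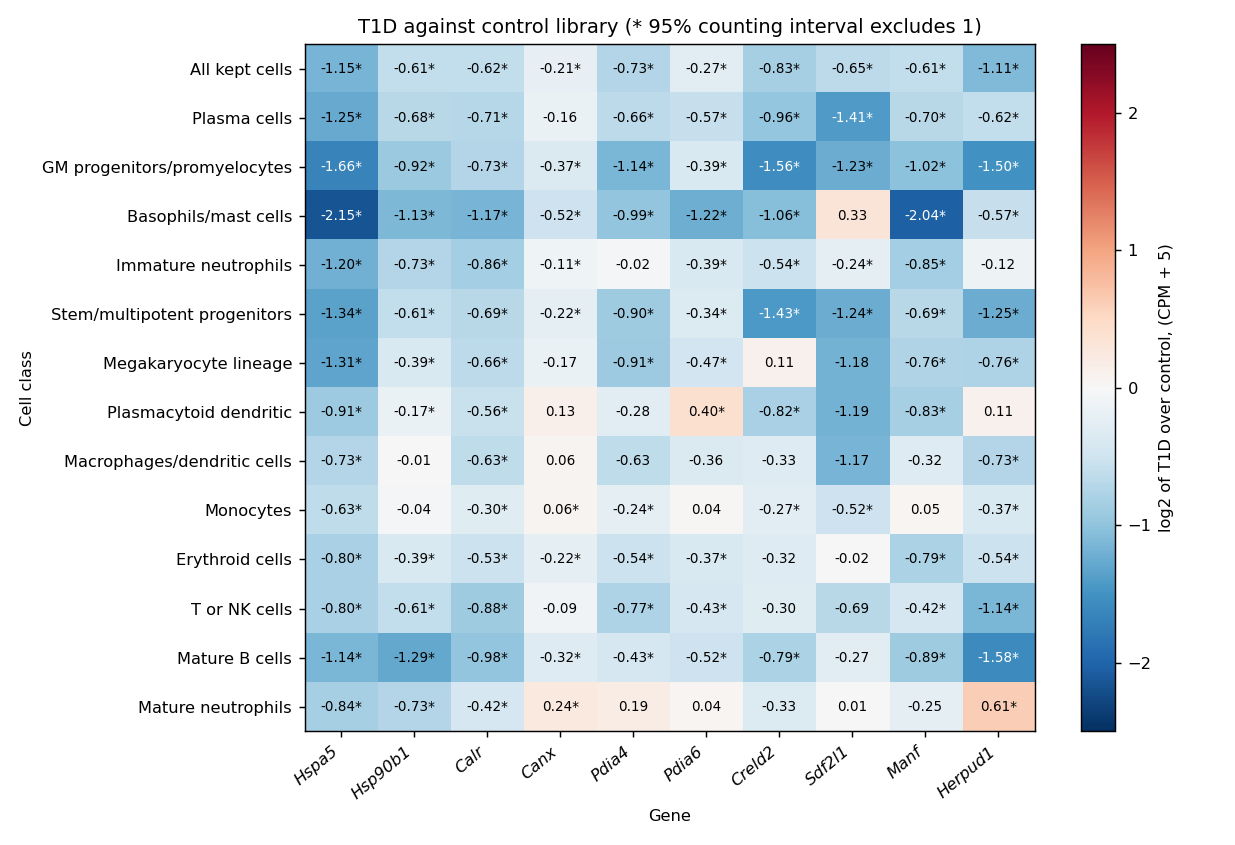
Log2 ratio of T1D over control, on the CPM + 5 scale, for each gene (columns) in all kept cells and in 13 classes (rows), blue for lower and red for higher in T1D. Stars mark a 95% counting interval without 1. The Hspa5 column is below 0 in every class, and the Canx column lies between -0.52 and 0.24.

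Hspa5 was lower in T1D in all 13 classes, from 1.55-fold in monocytes (805 and 518 CPM) to 4.47-fold in basophils or mast cells (2287 and 512 CPM). In 10 of the 13 classes at least 6 of the 10 genes had an interval below 1. This count includes monocytes, where 4 of the 8 members with 50 CPM were below 1 against 42.8% of all genes. The share over all genes is given with each class below. The median difference was widest in basophils or mast cells (-1.09) and granulocyte-monocyte progenitors (-1.08), followed by mature B cells (-0.84) and stem or multipotent progenitors (-0.79).

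In granulocyte-monocyte progenitors or promyelocytes all 9 genes with 50 CPM had an interval below 1 (29.2% of all genes), and 5 passed the 2-fold rule (0.550% of all genes). The 5 were Hspa5 (2379 and 749 CPM, 3.18-fold lower), Creld2 (147 and 46.5 CPM, 3.16-fold), Herpud1 (139 and 45.8 CPM, 3.04-fold), Pdia4 (201 and 88.3 CPM, 2.27-fold) and Manf (392 and 191 CPM, 2.06-fold). Canx (989 and 766 CPM) and Pdia6 (506 and 386 CPM) were 1.29-fold and 1.31-fold lower. The granule markers of the class were close in the libraries, with Mpo at 3519 and 3422 CPM and Elane at 2750 and 2430 CPM. The median of the 10 genes was -1.08, beside -0.04 for all genes.

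Basophils or mast cells, 155 and 130 cells, had all 9 genes with 50 CPM lower (16.4% of all genes) and 6 past the 2-fold rule (4.30%). Manf was 4.38-fold lower (2.83 to 7.09), at 250 and 57.1 CPM. Calr stood at 626 and 276 CPM and Hsp90b1 at 1421 and 648 CPM. Class markers were lower as well, Prss34 at 14956 and 10260 CPM and Fcer1a at 872 and 353 CPM, while Gata2 was higher at 1612 and 2193 CPM. Plasma cell transcripts Jchain and Igha summed to 23.4 and 425 CPM in the class. RNA of plasma cells at that level would carry at most 2.03% of any of the 10 levels in the T1D class. Free RNA of the library's mean profile at the same level would make up 1.23% of the control and 28.6% of the T1D counts of the class. With that share subtracted the log2 difference was -2.00 for Hspa5, -2.26 for Manf, -0.98 for Hsp90b1 and -0.94 for Calr, in place of -2.15, -2.04, -1.13 and -1.17.

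Stem or multipotent progenitors, 418 and 510 cells, had all 9 genes with 50 CPM lower (26.2% of all genes), and 3 passed the 2-fold rule (0.593%). Hspa5 stood at 2226 and 876 CPM, Creld2 at 145 and 50.7 CPM, and Herpud1 at 139 and 55.7 CPM. The cluster of this class carried 5 of its 8 markers, without Mecom, Hlf and Ly6a, and also all 5 markers of granulocyte-monocyte progenitors. Ly6a stood at 10.2 and 10.3 CPM in the class, below its 21.6 and 14.3 CPM over all kept cells. The name of the class is therefore loose.

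In plasma cells 8 of the 9 genes with 50 CPM had an interval below 1 (10.7% of all genes), and only Hspa5, at 2236 and 936 CPM (2.39-fold lower, 2.12 to 2.69), passed the 2-fold rule (4.84%). Creld2 was 1.97-fold lower and Hsp90b1 1.61-fold lower. Canx had 273 and 244 CPM, and its interval ran from 0.855 to 1.46. The median of the 10 was -0.69, beside 0.13 for all genes.

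Single plasma cells spread widely. The 10 genes together gave a median of 71.3 counts per 10000 in control plasma cells, from 13.5 to 362, and of 35.8 in T1D plasma cells, from 0 to 611. The ranges overlapped, and 12 of 70 and 13 of 94 cells held at least 50% of all chaperone counts of the class. Across cells the chaperone share and the immunoglobulin share had a Pearson r of -0.17 and -0.21, a description over cells of 1 library each. A median of 8 and 5.5 of the 10 genes had a count per cell, at median totals of 6769 and 4073 counts.

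**Figure D5:**
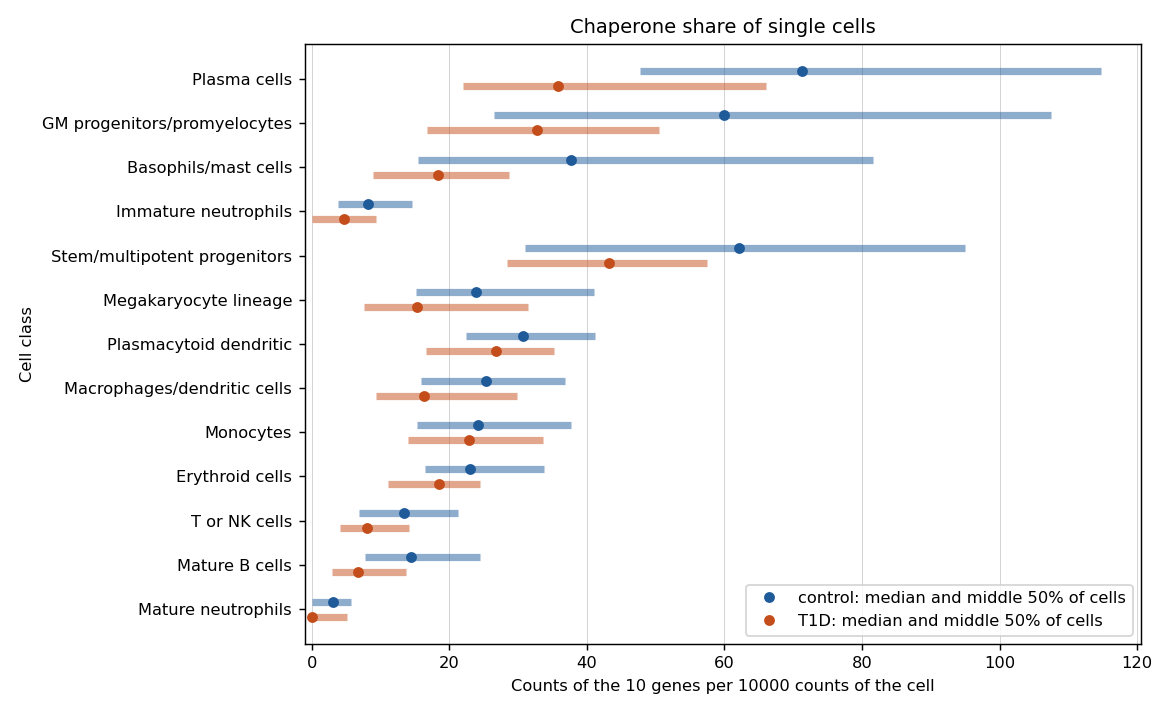
Counts of the 10 genes per 10000 counts of the same cell, for 13 classes, with points for the median and bars for the middle 50% of cells, blue for control and orange for T1D. The control bars of plasma cells, granulocyte-monocyte progenitors and stem or multipotent progenitors reach furthest right, and the T1D medians lie below the control medians in all 13 classes.

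Mature B cells had all 8 genes with 50 CPM lower (35.0% of all genes), led by Herpud1 at 168 and 52.8 CPM, Hsp90b1 at 505 and 204 CPM and Hspa5 at 437 and 196 CPM, the 3 past the 2-fold rule (5.57%). The Herpud1 difference came from cluster 18, found in the control library alone with 503 cells and 336 CPM of Herpud1. It carried 10 of the 11 mature B markers. Among its leading genes, Fam129c and Chst3 also led pro- or pre-B cluster 12, and Gm30211 also led pro- or pre-B cluster 22. The name mature is therefore loose for cluster 18. Without that cluster 5 of the 8 genes had an interval below 1, and those of Herpud1, Canx and Pdia4 held 1. Herpud1 then had 50.3 and 52.8 CPM, and the interval of the control over the T1D level ran from 0.695 to 1.31. Hspa5, then the 1 gene past the 2-fold rule, was 2.08-fold lower, and Hsp90b1 was 1.86-fold lower. Within the B lineage of the control library Herpud1 was highest in pro- or pre-B cluster 22, at 406 CPM, and lowest in mature B clusters 19 and 11, at 44.5 and 52.3 CPM.

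In T or NK cells 7 of 8 genes with 50 CPM had an interval below 1 (24.3% of all genes), and Herpud1 at 80.9 and 34.0 CPM passed the 2-fold rule (1.96%). In megakaryocyte-lineage cells it was 7 of 9 (14.3%), with Hspa5 at 1580 and 634 CPM past the rule (4.28%). Erythroid cells had 6 of 6 lower (24.0%) and immature neutrophils 5 of 5 (34.8%), the latter with Hspa5 at 401 and 172 CPM past the rule (0.419%). Jchain and Igha summed to 22.9 and 560 CPM in erythroid cells. RNA of plasma cells at that level would carry at most 6.16% of any member's level in the T1D class. Free RNA of the library's mean profile at that level would make up 1.21% of the control and 37.8% of the T1D erythroid counts.

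The remaining classes showed less. Monocytes had 4 of 8 lower (42.8% of all genes), plasmacytoid dendritic cells 5 of 9 (14.7%), macrophages or conventional dendritic cells 3 of 8 (17.4%) and mature neutrophils 2 of 3 (41.7%). Hsp90b1 had 765 and 745 CPM in monocytes, with an interval of 0.995 to 1.06 for the control over the T1D level. In plasmacytoid dendritic cells Pdia6 was higher in T1D, at 195 and 258 CPM, the 1 member with an interval above 1 (18.4% of all genes). In monocytes that member was Canx, at 569 and 595 CPM (29.5%). In mature neutrophils Canx, at 45.6 and 54.6 CPM, was the 1 with 50 CPM (30.6%).

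The other lists of reticulum genes had medians nearer to 0 over all kept cells, though single genes below 50 CPM had folds at or past that of Hspa5. Syvn1, a ubiquitin ligase of the degradation route with an ERSE, was 2.27-fold lower, at 28.7 and 12.6 CPM. Derl3, which also has an ERSE, was 2.57-fold lower at 2.04 and 0.793 CPM, near the floor. Mzb1, a cochaperone of Hsp90b1 in B-lineage cells, was 3.42-fold lower at 33.2 and 9.69 CPM. On the log2(CPM + 5) scale Syvn1 was at -0.93, Derl3 at -0.28 and Mzb1 at -1.38, against -1.15 for Hspa5. These values were not weighted for the mix of cells, and pro- or pre-B cells were found in the control library alone. The sensors and transcription factors of the unfolded protein response had 2 of 6 genes at 50 CPM, both with an interval below 1 (53.6% of all genes). Xbp1, whose spliced form drives the secretory programme of plasma cells, had 155 and 142 CPM, and Atf6 had 63.5 and 49.1 CPM. Atf6b was below 50 CPM, at 25 and 18.1 CPM. Spliced and unspliced Xbp1 cannot be told apart in gene counts. In plasma cells Xbp1 stood at 1260 and 1323 CPM, against 56.4 and 47.6 CPM in the non-secretory pool.

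The cochaperones had 6 of 8 genes at 50 CPM, with 4 lower and 1 higher. Of all genes with 50 CPM, 53.6% had an interval below 1 and 34.5% above 1, the shares to set beside each list here. Dnajc3, an ERSE gene, was lower at 157 and 120 CPM and Dnajc10 was higher at 80.9 and 108 CPM, while Sec63 had 68.0 and 69.2 CPM. The oxidoreductases had 5 of 10, of which 4 were lower. Pdia3 had 262 and 204 CPM, Erp29 had 128 and 105 CPM, and P4hb, the classical disulfide isomerase, had 261 and 259 CPM with an interval that held 1. The degradation genes had 6 of 10, of which 4 were lower, with Selenos at 119 and 110 CPM and Edem1 at 94.4 and 83.4 CPM. Vcp, the segregase that pulls proteins out of the membrane, had 176 and 174 CPM.

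The translocation and signal peptidase genes had 10 of 13 at 50 CPM, with 6 lower and 4 higher (53.6% and 34.5% of all genes). Serp1 had 276 and 284 CPM and Ssr3 193 and 214 CPM, both higher, and Sec61b had 182 and 138 CPM. Other lumenal factors had 4 of 9, all 4 lower, among them Uggt1 at 90.7 and 74.3 CPM, Ganab at 67.3 and 55.4 CPM and Prkcsh at 63.0 and 50.6 CPM. Medians of the 6 lists of reticulum genes lay between -0.34 and -0.15, against -0.64 for the chaperones. Paralogues of the members had 1 of 7 at 50 CPM, Herpud2 at 46.8 and 52.5 CPM, with Hspa13 at 37.5 and 24.6 CPM and Sdf2 at 31.4 and 28.2 CPM below it. No p-value or enrichment was computed for any list.

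The integrated stress response had 3 of 8 genes at 50 CPM, 2 of them with an interval below 1 (53.6% of all genes). Its median was -0.06, beside -0.08 for all genes with 50 CPM. Atf4, its main transcription factor, had 211 and 209 CPM with an interval that held 1. Atf3 was 3.12-fold lower in T1D, at 123 and 39.5 CPM, and Ppp1r15a, which restarts translation, was 1.80-fold lower at 52.6 and 29.2 CPM.

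Chaperones of the cytosol, which lie outside the secretory pathway, were lower by a like amount over all kept cells. Of 9 genes 6 had 50 CPM, all with an interval below 1 (53.6% of all genes), and the median of the list was -0.58. Hspa8 had 965 and 508 CPM, Hsp90aa1 885 and 612 CPM and Hsp90ab1 1181 and 920 CPM. By class the cytosolic and reticulum lists differed in both directions. The cytosolic median was -0.75 in monocytes, beside -0.26 for the reticulum chaperones. It was -0.86 beside -0.79 in stem or multipotent progenitors, and -0.74 beside -0.65 in T or NK cells. In mature B cells it was -0.80 beside -0.84, in basophils or mast cells -0.53 beside -1.09, and in immature neutrophils -0.12 beside -0.46. In plasma cells none of the cytosolic genes was 2-fold above the non-secretory pool in either library, where their median excess was -0.99 and -0.34, and Hspa8 stood at 389 and 187 CPM against 781 and 382 CPM in the pool. In granulocyte-monocyte progenitors or promyelocytes 4 of 7 and 3 of 5 cytosolic genes with 50 CPM were at least 2-fold above it, with a median excess of 1.13 and 0.93.

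The genes whose levels most resembled the mean of the 10, by Pearson r of log2(CPM + 5) over the 26 points of class and library, also belong to the secretory pathway. They were Dnajc3 (r = 0.95), Spcs2 of the signal peptidase (0.95), the cargo receptor Lman1 (0.93), Selenos (0.91), the tethering factor Uso1 (0.91), Tmed9 (0.90), the glucosidase subunit Ganab (0.90) and Fkbp2 (0.90). Without plasma cells, over 24 points, Pdia3 led at 0.97, followed by Spcs2, Dnajc3, Ganab, Magt1, Tmed9, Ddost and Rpn2, the last at 0.92. Against the other 9 genes, Manf and Hsp90b1 had the highest r, 0.97 each, and Canx (0.68) and Herpud1 (0.71) the lowest. With plasma cells left out Herpud1 was lowest at 0.66, followed by Sdf2l1 at 0.77 and Canx at 0.86. The points share 2 libraries and their depth, and an r is a description.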

How the data were processed

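Single-cell RNA libraries of mouse bone marrow were made with the Singleron GEXSCOPE kit, after digestion of bone with collagenase and dispase and lysis of red cells, per the labels' protocols. The authors deposited raw counts, whole numbers for each gene and barcode, with no normalization. The submitters' processing notes name bcl2fastq 2.19, featureCounts and mm9. Which aligner and annotation were used, how cells were called and whether molecular identifiers were collapsed was not given in the sources used here. Genes carry symbols only. Promoters come from RefSeq (GRCm38.p6), another build, matched by symbol.

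Barcodes with at least 200 genes and at most 20% mitochondrial counts were kept. Genes missing from 1 of the tables counted as 0 there. No doublet caller was run and no doublet was removed. Cells of both libraries were clustered together (30 components of 3067 variable genes, 15 neighbours, Leiden resolution 1 with igraph 0.11.9, best of 10 starts). The 10 genes and the other lists of reticulum and stress genes were left out of the variable genes, so clusters do not rest on them. The 9 cytosolic chaperones were not left out and could take part in drawing the classes. A name needed at least 3 markers, 2-fold higher in the cluster, and the names carry the sense of "like". The naming rule was set after the clusters had been seen. The genes and lists were chosen with earlier results of these data known.

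Counts were summed per class and library and given as CPM with exact Poisson intervals. Ratios carry exact conditional binomial intervals. Differences are on the log2(CPM + 5) scale, and lists are described by counts and medians. All 10 genes are named, with the 3 highest genes of each other list and the 8 genes most like the 10. Other genes and clusters named beside a result were picked after their values were seen. The size rule was tried on simulated counts drawn from the control profile with set folds. That trial covers counting error and holds no other difference between libraries, so it cannot speak to the lack of replicates. Analyses used Python 3.11.15, scipy 1.17.1, edgeR 4.0.16 and DESeq2 1.42.0 (the last pair for scaling factors alone), and 17 alternatives were tried.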

Additional observations from a re-analysis of the deposited data

Results flagged for a closer look

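A gene counts here when its interval lay above 1 in a class while it lay below 1 in other classes. The difference between classes was not tested. Canx was 1.05 times its control level in T1D monocytes and 1.20 times in T1D mature neutrophils. Pdia6 was 1.32 times its control level in T1D plasmacytoid dendritic cells. Herpud1 was 1.67 times its control level in T1D mature neutrophils, at 18.7 and 31.2 CPM. Mature neutrophils of the libraries lay mostly in different clusters, number 3 with 1940 control and 142 T1D cells and number 1 with 108 and 3020. Within cluster 1 Herpud1 stood at 27.1 and 29.8 CPM, with overlapping intervals.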

How the results depend on the processing

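No paired analysis was possible because each group has 1 library. The 10 genes were lower in T1D under all alternatives except subtraction of free RNA at the level set by hemoglobin, which left 9. The median of the 10 over all kept cells was -0.54 with edgeR's TMM factors and -0.56 with DESeq2's size factors, which shift the median of all genes by 0.14 and 0.11. It was -0.56 in cells at or above the lowest control total and -0.43 at the hemoglobin level. The log2 ratio of Hspa5 was -1.02 with TMM, -1.05 with DESeq2, -1.08 without ribosomal RNA, -1.10 with at least 500 genes per cell, -1.06 at or above the lowest control total, -1.04 at the hemoglobin level and -1.12 with control shares. Leaving out clusters with under 50 cells in a library, an alternative chosen after seeing the data, gave -1.20. Classes with most members lower numbered 4, not 10, with cells thinned to 1000 counts, where fewer counts widen every interval. Over 20 starts of the partition they numbered 9 to 11, of 12 or 13 classes with at least 50 cells in both libraries. The plasma excess in control was 3.18 without immunoglobulin genes, 2.97 in thinned cells and 3.76 at the hemoglobin level. In T1D it was 3.57 without immunoglobulin genes, 3.42 after subtraction of free RNA set by Jchain and Igha and 3.57 at the hemoglobin level. The hemoglobin level would take 100% of the counts of T1D macrophages or conventional dendritic cells and of T1D mature neutrophils, 76.8% of those of control plasma cells and 67.4% of those of control mature B cells, so values at this level are no usable check. It turned 5 values: Pdia6 over all kept cells (0.019), the median of mature B cells (1.67), Hspa5 (5.04) and Hsp90b1 (0.54) in mature B cells, and the median of macrophages or conventional dendritic cells (0.21). Herpud1 in mature B cells was 0.064 without the clusters with under 50 cells in a library, where fewer cells enter. Without replicates, depth bounds the counting error alone.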
